A study of Mus musculus with 10 samples.

Results

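A set of 10 imprinted genes that control growth was followed in C3H10 T1/2 cells, a mouse embryo mesenchymal line that can take up osteoblast, adipocyte and other fates. They were Mest, Igf2, H19, Igf2r, Dlk1, Cdkn1c, Plagl1, Grb10, Peg3 and Ndn, which is 10 of the 46095 gene symbols in the count table. The genes are all imprinted in mouse and were selected on that ground with their RNA counts in the strain and control libraries, and the peaks within 5 kb of them, already known. Their differences between groups are therefore a description, with no p-value of their own. The RNA-seq groups were 3 libraries of cells under cyclic mechanical strain, with a sinusoidal stretch of 0.5 Hz and 10% elongation for 8 h a day over 3 days, and 3 libraries of static control cells. Both were grown for 48 h on collagen-coated flexible plates before strain began, and the labels give the strain of origin as C57BL/6. The ATAC-seq groups, which measure open chromatin by insertion of sequencing adapters, were 2 libraries of C3H10 T1/2 cells with Piezo1 knocked out by CRISPR/Cas9 and 2 libraries of GFP control cells of the same line; the labels name no stretch for either. The sources used here do not say whether the knockout is 1 clone, and the peak lists do not show the edit. Nor is it stated that replicates were grown as separate cultures, and a p-value then reflects library-to-library spread alone, part of which may be technical.

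An imprinted gene is expressed mainly from the copy inherited from 1 parent, because methylation laid down in the egg or sperm marks control regions. Many of these genes act on fetal growth: paternally expressed genes such as Igf2 tend to promote it, and maternally expressed genes such as H19, Igf2r, Cdkn1c and Grb10 tend to restrain it. Several are described as a network of genes that are expressed together in embryonic mesenchyme and muscle precursors and decline after birth. The counts do not separate the parental copies, so each value is the sum of both alleles.

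Library totals lay between 36150738 and 41024689 counts. Control replicate 3 and strain replicate 1 stood apart from the other libraries of their groups. Chi-square per degree of freedom was 40.5 and 64.7 for control replicate 3 against the other controls, which differed from each other by 9.78. It was 48.2 and 37.7 for strain replicate 1 against the other strain libraries, which differed from each other by 16.9. Mesenchymal genes were abundant, with a summed level of 36300 to 42200 CPM (the count scaled to the library total after edgeR's TMM adjustment) under strain and 60700 to 62000 CPM in control for 6 markers, although Thy1 was under 1 CPM in all libraries. Among markers of other cell types, Ptprc (macrophages), Epcam (epithelium), Cdh5 (endothelium) and the muscle factors Myod1 and Myog had 0 counts. Other markers of these types did have counts. Per library, Cd68 (macrophages) had 76 to 186, Cdh1 (epithelium) 46 to 323, Tek (endothelium) 14 to 23 and Des (muscle) 54 to 108. Summed over 4 markers each, adipocyte genes lay at 6.25 to 7.59 CPM under strain and 3.51 to 5.46 CPM in control. Of these only Fabp4 had enough counts to be tested, and it was higher. Adipoq, Plin1 and Cidec were under 1 CPM in all libraries. Epithelial genes lay at 2.95 to 4.53 CPM under strain and 8.42 to 9.69 CPM in control (1 of 2 tested lower). Muscle genes lay at 1.89 to 2.02 CPM under strain and 3.17 to 3.87 CPM in control (1 of 2 tested lower). Of 5 tested mesenchymal markers 4 were lower. No chondrocyte, endothelial or macrophage marker was called, with 2 tested of each type. Over all tested genes 7.39% were lower and 5.94% higher at an adjusted p under 0.05. Chondrocyte markers summed to 53.5 to 77.9 CPM under strain and 64.5 to 74.3 CPM in control. Macrophage markers summed to 3.63 to 4.85 CPM under strain and 2.64 to 3.55 CPM in control. For endothelial markers the sums were 0.792 to 1.19 CPM under strain and 0.512 to 0.927 CPM in control. Of 4 osteoblast markers 3 were tested, and all 3 were lower under strain. The 4 summed to 92.0 to 131 CPM under strain and 260 to 285 CPM in control. The part of this shift in the values below was not tested. In bulk RNA, fewer cells expressing a gene and less RNA per cell cannot be told apart.

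Of the 10 genes, 9 had enough counts to be tested, and 5 of them were lower under strain in the fit over all genes, where 7.39% of 15335 tested genes were lower and 5.94% higher at an adjusted p under 0.05. None of the 10 was higher. With library size alone in place of TMM, 5 of the 9 were again lower, while the split over all genes turned to 1169 higher and 935 lower, against 911 higher and 1134 lower with TMM. Without strain replicate 3, 2 genes were lower, Mest and H19. In 6 of the 9, all 3 strain libraries lay below all 3 control libraries, against 17.9% of tested genes. H19 and Cdkn1c passed the filter on low counts through the control libraries, so these shares describe the genes and support nothing. The growth-promoting ligand Igf2, the enzyme-like gene Mest, the noncoding H19, the cell cycle inhibitor Cdkn1c and the zinc-finger gene Peg3 were the lower ones. The IGF2 receptor Igf2r, the signalling adaptor Grb10 and the transcription factor Plagl1 had overlapping groups.

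**Figure D1:**
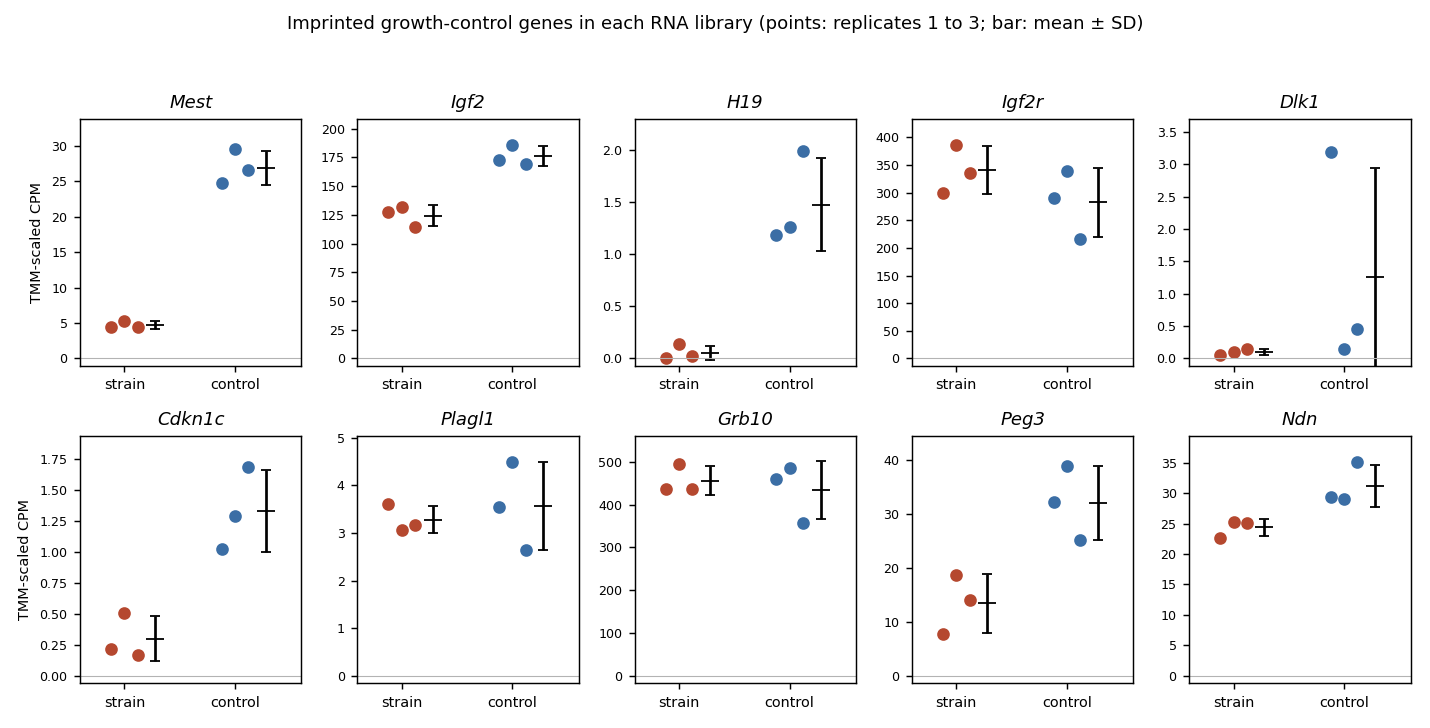
TMM-scaled CPM of the 10 genes on linear axes, with 1 point per RNA library and the mean ± SD (n = 3) beside each group; SD bars that reach below 0 are cut at the lower edge. The strain libraries lie below the control libraries for Mest, Igf2, H19, Cdkn1c, Peg3 and Ndn, and the Dlk1 control mean rests on replicate 1.

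Mest encodes a protein of the alpha/beta hydrolase fold and is expressed from the paternal copy. Its locus is chr6:30733506-30748466 (mm10, plus strand). Mest was at 4.47, 5.35 and 4.39 CPM in strain replicates 1 to 3, against 24.7, 29.5 and 26.6 CPM in control replicates 1 to 3. The groups were far apart, and the spread within each was small beside the gap. The means were 4.73 ± 0.532 CPM under strain and 26.9 ± 2.42 CPM in control (SD, n = 3 each), a log2 fold change of -2.51 (SE 0.14). With 1 library left out at a time it lay between -2.61 and -2.44. The neighbouring Copg2, maternally expressed in some tissues, overlaps the Mest locus and had 2432, 2261 and 2250 counts under strain and 2745, 2545 and 2292 counts in control. The strand setting of the counting is not given, so reads where the genes overlap cannot be told apart.

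The 250 bases before the Mest start with the most CG pairs, and those before the starts of Peg3 and Plagl1, are shown because Mest and Peg3 were lower under strain while Plagl1, whose product is known to act on other imprinted genes, was not. The sequences are RefSeq's, of the GRCm38.p6 build (mm10), read 5′ to 3′ on the gene's strand. Capitals mark TGCCGC, the core that the imprint-maintaining factor ZFP57 binds when methylated, or GGGGCCCC, the core of the PLAGL1 consensus, in either direction (TGCCGC on the other strand reads GCGGCA). The windows are chr6:30737800-30738049 (plus), chr7:6730420-6730669 (minus) and chr10:13090582-13090831 (plus).
Mest: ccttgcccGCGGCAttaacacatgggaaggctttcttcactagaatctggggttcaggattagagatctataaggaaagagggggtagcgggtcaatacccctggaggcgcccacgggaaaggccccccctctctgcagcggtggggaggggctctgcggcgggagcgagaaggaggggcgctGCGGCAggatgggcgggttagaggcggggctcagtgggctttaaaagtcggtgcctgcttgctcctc
Peg3: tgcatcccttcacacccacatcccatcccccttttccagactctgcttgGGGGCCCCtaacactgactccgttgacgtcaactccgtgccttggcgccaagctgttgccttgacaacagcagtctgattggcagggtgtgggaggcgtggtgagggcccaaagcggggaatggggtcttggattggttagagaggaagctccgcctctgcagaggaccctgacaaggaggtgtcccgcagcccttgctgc
Plagl1: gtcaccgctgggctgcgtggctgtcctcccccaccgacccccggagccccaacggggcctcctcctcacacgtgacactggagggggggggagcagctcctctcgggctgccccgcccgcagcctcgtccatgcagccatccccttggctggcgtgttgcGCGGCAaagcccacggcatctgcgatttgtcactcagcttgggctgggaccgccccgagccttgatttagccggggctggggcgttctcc

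The RefSeq start regions used here gave 14 such windows for 8 of the 10 genes, with none at hand for H19 and Cdkn1c. A pair of Mest windows overlaps, offset by 3 bases, which leaves 13 distinct regions. TGCCGC occurred in 2 of the 13, 1 of Mest and 1 of Plagl1, and 8.68% of 32851 windows of all genes, overlapping ones included, held it. GGGGCCCC occurred in 1, of Peg3, against 0.889% of all. Another motif, GCCATNTT for the factor YY1, occurred in 0 of the 13 and in 3.91% of all. CG pairs numbered 14 in the Mest window, 8 in that of Peg3 and 19 in that of Plagl1, against a median of 6 over all windows. These are matches of letters only.

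Igf2 encodes the fetal growth factor IGF2 and is expressed from the paternal copy. The maternally expressed H19, a noncoding RNA, lies 72.6 kb away on chromosome 7, and both draw on the same enhancers. Igf2 (chr7:142650768-142666816, minus strand) was at 127, 132 and 114 CPM in strain replicates 1 to 3, against 173, 186 and 169 CPM in control replicates 1 to 3. The groups did not overlap, and the difference was modest. The log2 fold change was -0.50 (SE 0.10), with means of 124 ± 9.16 CPM under strain and 176 ± 8.78 CPM in control (SD, n = 3 each). Without strain replicate 3 it was -0.45, and the gene was then no longer among those called.

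H19 (chr7:142575530-142578146) was rare in all libraries and rarer under strain. It had 0, 5 and 1 counts in strain replicates 1 to 3, against 45, 45 and 70 counts in control replicates 1 to 3. Summed over the libraries this was 6 counts under strain against 160 in control. Scaled by TMM-adjusted library totals, strain over control was 0.0340, with an exact 95% interval from counting error of 0.0123 to 0.0756. All 3 strain libraries were far below the lowest control library. The log2 fold change from the fit was -4.79 (SE 0.68), and it moved to -6.60 without strain replicate 2, which held 5 of the 6 counts under strain. Igf2 and H19 were thus both lower under strain.

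Mature microRNAs are cut from the transcripts or introns of 3 of these genes: miR-335 from Mest, miR-675 from H19 and miR-483 from Igf2. Their RefSeq sequences are shown 5′ to 3′ because the host transcripts were lower under strain, with the seed (bases 2 to 8) in capitals.
mmu-miR-335-5p: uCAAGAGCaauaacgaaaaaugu
mmu-miR-335-3p: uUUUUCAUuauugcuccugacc
mmu-miR-675-5p: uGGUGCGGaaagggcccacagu
mmu-miR-675-3p: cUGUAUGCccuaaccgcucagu
mmu-miR-483-5p: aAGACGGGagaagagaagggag
mmu-miR-483-3p: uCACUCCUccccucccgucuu
The 6 mature forms have 6 distinct seeds. The rows of Mir335, Mir675 and Mir483 held 0 counts in all 6 libraries. The cDNA kit amplifies full-length mRNA, so these rows do not measure mature microRNA.

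Igf2r encodes the receptor that carries IGF2 to the lysosome for breakdown, and in mouse it is expressed from the maternal copy. Igf2r (chr17:12682406-12769706, minus strand) was at 300, 386 and 336 CPM in strain replicates 1 to 3, against 291, 340 and 216 CPM in control replicates 1 to 3. The groups overlapped, and control replicate 3 was the lowest library. The log2 fold change was 0.27 (SE 0.16), and 0.11 without control replicate 3. Within each library, the Igf2 count divided by the Igf2r count was 0.421, 0.343 and 0.340 in strain replicates 1 to 3, against 0.597, 0.547 and 0.783 in control replicates 1 to 3. This ratio, chosen after its values were seen, does not depend on scaling between libraries, and all 3 strain libraries lay below all 3 control libraries. Its means were 0.368 ± 0.0459 under strain and 0.642 ± 0.124 in control (SD, n = 3 each).

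**Figure D2:**
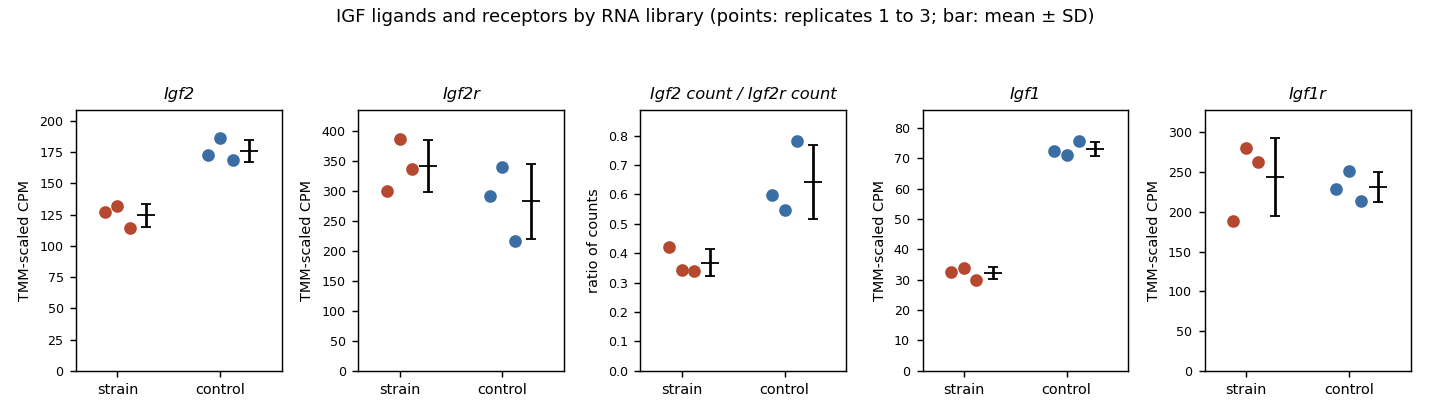
TMM-scaled CPM of Igf2, Igf2r, Igf1 and Igf1r, and the Igf2 count divided by the Igf2r count, with 1 point per RNA library and the mean ± SD (n = 3). The ratio lies between 0.340 and 0.421 in strain libraries and between 0.547 and 0.783 in control libraries, and the Igf1r groups overlap.

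Among 16 partners of IGF2, 4 were lower and 1 higher under strain, or 31.2% called against 13.3% of all tested genes. The list was drawn up with results of these libraries known, so its direction is not independent evidence. Igf1, the second ligand of the IGF1 receptor, fell to 32.5, 33.9 and 29.9 CPM in strain replicates 1 to 3, against 72.4, 71.1 and 75.7 CPM in control replicates 1 to 3 (log2 fold change -1.19, SE 0.10, edgeR adjusted p = 7.36e-05). Igf1r, the receptor through which both ligands signal, was at 188, 280 and 263 CPM in strain replicates 1 to 3, against 229, 251 and 214 CPM in control replicates 1 to 3 (log2 fold change 0.08, SE 0.14, edgeR adjusted p = 0.768). The binding protein genes Igfbp5, Igfbp4 and Igfbp2 fell, with log2 fold changes of -4.98, -1.15 and -0.80 (edgeR adjusted p of 0.00326 or less for each), and Igfbp5 was at -5.59 without strain replicate 2. Igfbp3 rose (log2 fold change 0.46, edgeR adjusted p = 0.0203), but it was no longer called when control replicate 1 (0.45), strain replicate 2 (0.38) or strain replicate 3 (0.46) was left out. Igf2bp1 and Igf2bp2, which encode proteins that bind Igf2 mRNA, had log2 fold changes of 0.10 and 0.28 and were not called.

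Cdkn1c encodes p57, an inhibitor of cyclin-dependent kinases that holds cells out of the cycle, and is expressed from the maternal copy. Its locus (chr7:143458339-143461059) lies 792 kb from Igf2 in the same imprinted region. Cdkn1c had 9, 19 and 7 counts in strain replicates 1 to 3, against 39, 46 and 59 counts in control replicates 1 to 3. In CPM these were 0.216, 0.508 and 0.170 under strain and 1.02, 1.29 and 1.68 in control. The groups did not overlap, at a low level in both. Summed, these were 35 counts under strain against 144 in control. Scaled by TMM-adjusted library totals, strain over control was 0.220, with an exact 95% interval from counting error of 0.148 to 0.321. The log2 fold change was -2.16 (SE 0.46), -2.77 without strain replicate 2, and -1.88 without strain replicate 3, where it was no longer called.

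Of 6 other CDK inhibitor genes, 4 were tested and 0 were called by edgeR, DESeq2 or limma-voom. In edgeR 1 of the 4 had an unadjusted p under 0.05, against 4544 of all 15335 tested genes. With 13.3% of all tested genes called, a count of 0 among 4 is near that share, and no difference from Cdkn1c was tested. All 4 log2 fold changes were below 0, from -0.28 for Cdkn2d to -0.01 for Cdkn2c. Cdkn1a, which encodes p21, was at 214, 181 and 187 CPM in strain replicates 1 to 3, against 221, 205 and 237 CPM in control replicates 1 to 3. Cdkn2a and Cdkn2b had 0 counts in all libraries.

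Peg3 encodes a large zinc-finger protein and is expressed from the paternal copy. Peg3 (chr7:6703892-6730462, minus strand) was at 7.69, 18.6 and 14.0 CPM in strain replicates 1 to 3, against 32.1, 38.8 and 25.2 CPM in control replicates 1 to 3. The groups did not overlap, although strain replicate 1 and control replicate 3 were each the lowest of their group. The log2 fold change was -1.25 (SE 0.27). It was -0.98 without strain replicate 1, and -1.29 without strain replicate 3, where it was no longer called. The antisense Peg3os in the same locus had 5, 3 and 0 counts under strain and 10, 19 and 6 in control.

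Ndn encodes necdin, a growth-suppressing protein of the MAGE family expressed from the paternal copy. Ndn (chr7:62348277-62349928, plus strand) was at 22.7, 25.3 and 25.1 CPM in strain replicates 1 to 3, against 29.4, 29.1 and 35.2 CPM in control replicates 1 to 3. The groups did not overlap, but the log2 fold change of -0.36 (SE 0.12) was not called by edgeR.

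Plagl1, also named Zac1, encodes a zinc-finger transcription factor that acts on Igf2, H19, Cdkn1c and Dlk1 in mouse. Plagl1 (chr10:13090832-13131694, plus strand) was at 3.60, 3.07 and 3.17 CPM in strain replicates 1 to 3, against 3.55, 4.49 and 2.65 CPM in control replicates 1 to 3. The control libraries spanned all the strain libraries, and the log2 fold change was -0.12 (SE 0.23), turning to 0.08 without control replicate 2. Grb10 encodes an adaptor that binds the insulin and IGF1 receptors and dampens their signal, and it is maternally expressed outside the brain. Grb10 (chr11:11930499-12037428, minus strand) was at 438, 496 and 436 CPM in strain replicates 1 to 3, against 461, 486 and 358 CPM in control replicates 1 to 3. Again the groups overlapped, with a log2 fold change of 0.07 (SE 0.13) that turned to -0.05 without control replicate 3.

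Dlk1 encodes a membrane protein with EGF-like repeats that holds back adipocyte differentiation, and is expressed from the paternal copy. Dlk1 (chr12:109452485-109463336, plus strand) was the 1 gene of the 10 left out by the filter on low counts, since 2 of its control libraries and 0 of its strain libraries reached the minimum of 0.264 CPM. It had 2, 4 and 6 counts in strain replicates 1 to 3, against 122, 5 and 16 counts in control replicates 1 to 3. Control replicate 1 held most of the reads. The sums were 12 counts under strain and 143 in control, or 21 in control without replicate 1. In CPM, strain replicate 3 at 0.145 was above control replicate 2 at 0.140, so the groups overlapped. With no filter on low counts the log2 fold change was -3.62 (SE 0.59) and the gene was called lower. Without control replicate 1, an alternative added after seeing the data, it was -1.54 (SE 0.90) and was not called. In the same imprinted region, the maternally expressed noncoding genes Meg3 and Rian had 0 counts in all 6 libraries, and Mirg had 3, 10 and 14 counts in strain replicates 1 to 3, against 5, 5 and 4 counts in control replicates 1 to 3.

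The called genes among the other imprinted genes did not share 1 direction. Of 53 listed, 52 were in the count table, 12 of these had 0 counts in all libraries and 33 were tested. The annotation and strand setting of the counting are not given, so 0 counts need not mean that a gene was silent. Of the 33, 3 were higher and 2 lower under strain, or 15.2% called against 13.3% of all tested genes, with a median log2 fold change of -0.08 against 0.00. Genes were grouped by the parental copy they are listed under, and the copy expressed in these cells was not measured. Among 17 tested genes listed as expressed from the paternal copy, 2 were higher and 2 lower (median 0.01). Among 16 listed as expressed from the maternal copy, 1 was higher and 0 lower (median -0.21). DESeq2 called 1 of these as lower and limma-voom 0. In edgeR 3 of the 16 had an unadjusted p under 0.05, against 4544 of all 15335 tested genes. All 3 strain libraries lay below all 3 control libraries in 4 of the 17 and 6 of the 16. They lay above in 2 of the 17 and 1 of the 16. Over all tested genes these shares were 17.9% below and 17.4% above. Log2 fold changes were below 0 for 8 of the 17, 11 of the 16 and 7576 of all 15335 tested genes.

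Slc38a4, an amino acid transporter gene of fetal liver and placenta, fell to 0.0721, 0.241 and 0.170 CPM in strain replicates 1 to 3, against 0.601, 0.787 and 1.08 CPM in control replicates 1 to 3 (log2 fold change -2.34, SE 0.50, edgeR adjusted p = 0.0134). The call was lost without strain replicate 3 (-2.40). Rasgrf1, a Ras exchange factor gene, fell to 0.276 ± 0.0709 CPM under strain, against 1.28 ± 0.304 CPM in control (SD, n = 3 each; log2 fold change -2.20, edgeR adjusted p = 0.00489). Both were rare in these cells. Of the strain libraries, 0 reached the filter minimum of 0.264 CPM for Slc38a4 and 2 for Rasgrf1, against 3 control libraries for each, so Slc38a4 was tested only through the group where it is high. Impact, a regulator of the GCN2 stress kinase, rose to 204, 190 and 176 CPM in strain replicates 1 to 3, against 136, 133 and 107 CPM in control replicates 1 to 3 (log2 fold change 0.60, edgeR adjusted p = 0.00761). Dio3, which inactivates thyroid hormone and lies in the imprinted region of Dlk1, rose to 56.9 ± 11.8 CPM under strain, against 34.3 ± 3.86 CPM in control (SD, n = 3 each; log2 fold change 0.73, edgeR adjusted p = 0.0137). Its call was lost without strain replicate 2 (0.62) or strain replicate 3 (0.66). Atp10a, a phospholipid flippase gene, rose to 41.3 ± 3.97 CPM under strain, against 21.9 ± 4.37 CPM in control (SD, n = 3 each; log2 fold change 0.91, edgeR adjusted p = 0.00334).

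**Figure D3:**
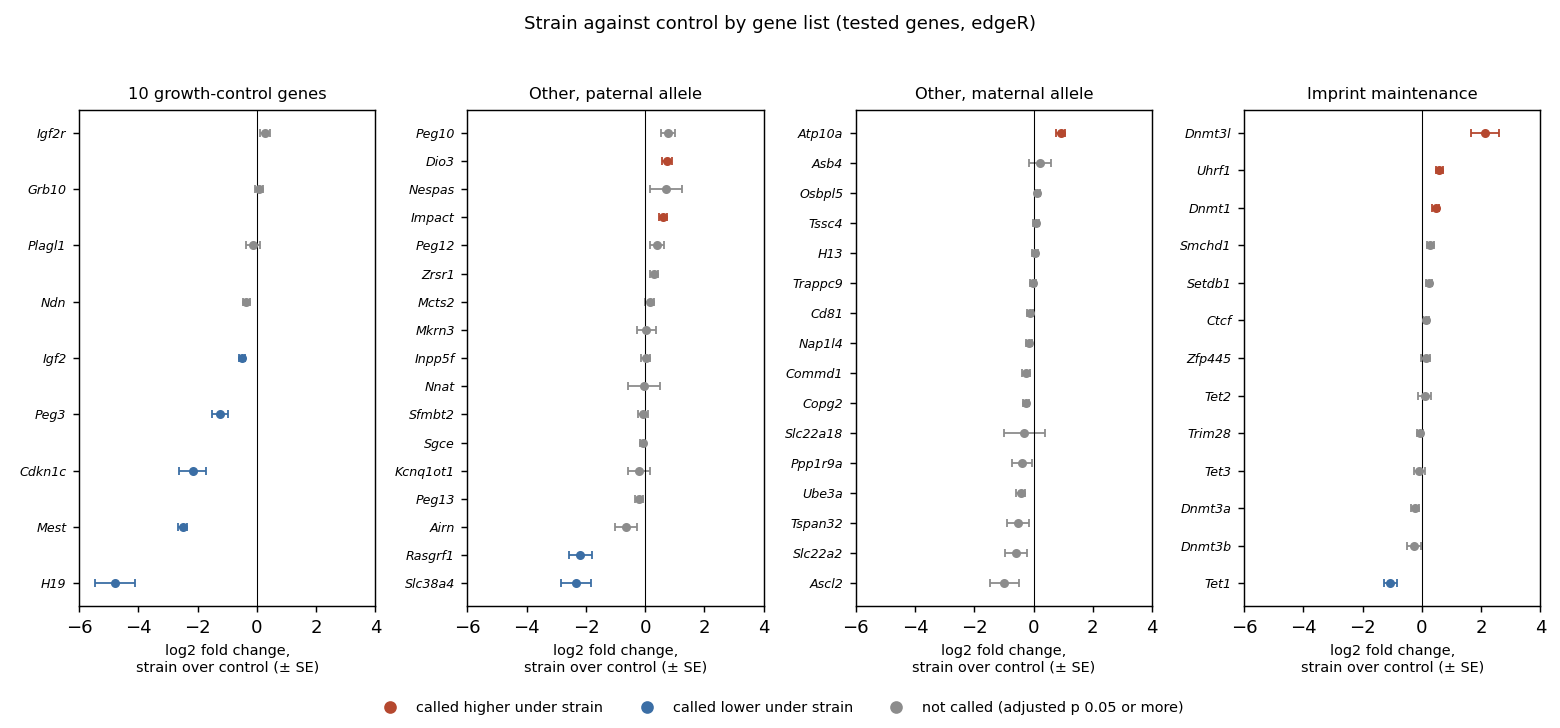
Log2 fold change of strain over control with its SE (edgeR) for the tested growth-control genes, other imprinted genes by listed parental copy, and imprint maintenance genes. Colours mark the calls at an adjusted p under 0.05. The growth-control genes run from -4.79 for H19 to 0.27 for Igf2r, and most other imprinted genes lie near 0.

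Genes that keep, lay down or remove DNA methylation at imprints, or bind there, were also read, grouped as imprint maintenance genes although Dnmt3l and the Tet genes do not maintain methylation. Of 13 tested, 3 were higher and 1 lower under strain, or 30.8% called against 13.3% of all tested genes. Dnmt1, the maintenance DNA methyltransferase, rose to 108, 130 and 121 CPM in strain replicates 1 to 3, against 84.4, 98.4 and 77.1 CPM in control replicates 1 to 3 (log2 fold change 0.47, edgeR adjusted p = 0.0289). Its cofactor Uhrf1 rose with a log2 fold change of 0.58 (edgeR adjusted p = 0.0140). Dnmt3l, a cofactor of new methylation in germ cells, rose at a low level, to 1.01 ± 0.300 CPM under strain, against 0.233 ± 0.112 CPM in control (SD, n = 3 each; log2 fold change 2.12, edgeR adjusted p = 0.0169). It reached the filter minimum in 3 strain libraries and 2 control libraries. Tet1, which oxidises methylated cytosine, fell to 2.10 ± 0.205 CPM under strain, against 4.40 ± 0.809 CPM in control (SD, n = 3 each; log2 fold change -1.07, edgeR adjusted p = 0.00916). Each of the 3 higher calls was lost when certain single libraries were left out. Dnmt1 dropped out when control replicate 1 (0.45), control replicate 3 (0.39), strain replicate 2 (0.40) or strain replicate 3 (0.45) was removed. Uhrf1 dropped out on removal of control replicate 1 (0.54), strain replicate 2 (0.50) or strain replicate 3 (0.52), and Dnmt3l on removal of control replicate 1 (1.76), strain replicate 1 (1.96) or strain replicate 3 (2.02). Zfp57 had 0, 2 and 0 counts in strain replicates 1 to 3, against 1, 0 and 1 in control replicates 1 to 3, and Dppa3 had 0 counts in all libraries.

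By correlation of log2 CPM over the 6 RNA libraries, the genes most alike to Mest were Prelp (Pearson r = 0.999) and Fmod (0.998), which encode small leucine-rich proteoglycans of the matrix. Those most alike to Cdkn1c were Dlx5 and Srpx (0.996 each), to H19 Selenbp1 (0.999) and Nts (0.995), to Peg3 Fermt2 and Slc25a13 (0.998 each), and to Ndn Mgp (0.999) and B230118H07Rik (0.998). Igf2 was most like Ak3 (0.996) and Sorbs2 (0.995), Igf2r like D830031N03Rik (0.999) and Myo10 (0.998), Grb10 like Xiap (0.994) and Rbl2 (0.993), and Plagl1 like Spire1 (0.987). These are the highest values among 10944 or 10945 genes, and the 6 libraries fall into 2 groups, so such values describe these libraries only.

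Open chromatin near the 10 genes was sparse in the deposited peak lists, which held 15980 and 13610 peaks in knockout replicates 1 and 2 and 15978 and 26652 peaks in GFP replicates 1 and 2. Only Igf2r and Plagl1 had a peak within 5 kb of the gene body in any library, and 8 of the 10 had none in all 4. Among 14365 tested genes matched to RefSeq, 78.5% had such a peak in at least 1 library and 51.2% in all 4. By library, 1 of the 10 had a peak in each knockout library, against 63.4% and 62.0% of tested genes in knockout replicates 1 and 2. In GFP replicates 1 and 2, 1 and 2 of the 10 had a peak, against 61.0% and 76.1% of tested genes. The loci of the 10 had a median length of 15.5 kb, against 19.7 kb for all tested genes. Of the other imprinted genes tested, 9 of 16 listed as paternally expressed had a peak in at least 1 library. So did 13 of 16 listed as maternally expressed. Since the peaks were known when the 10 were selected, no test was made. The peak lists carry no read totals, so ATAC-seq depth is unknown.

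**Figure D4:**
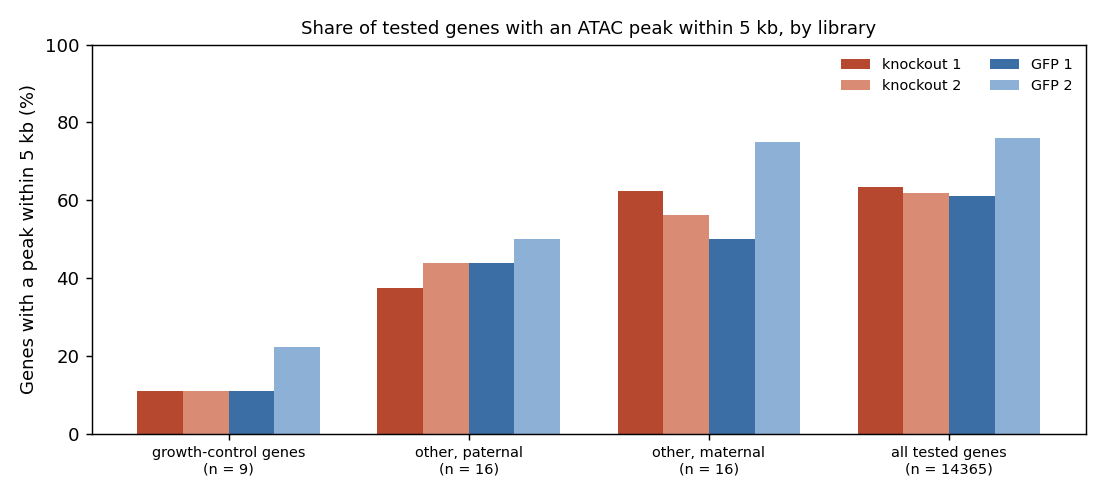
Share of tested genes with an ATAC peak within 5 kb of the gene body, in percent, with 1 bar per library. Shown are 9 growth-control genes, 16 other imprinted genes listed as paternally and 16 as maternally expressed, and 14365 tested genes. The growth-control genes reach 11.1% in 3 libraries and 22.2% in GFP replicate 2, and all tested genes 61.0% to 76.1%.

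The distance to the nearest listed peak differed widely among the genes without one. For Mest it was 39.4 to 39.7 kb over the 4 libraries, for Cdkn1c 87.6 to 87.7 kb and for Peg3 320.0 kb in each. For Grb10, with 12570 counts or more in each RNA library, it was 34.8 kb in the nearest library and 194 kb in the farthest. For H19 it was 42.0 to 104 kb, for Igf2 117 to 180 kb, for Dlk1 11.1 to 234 kb and for Ndn 114 to 1580 kb.

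Igf2r held 10 of the 11 peaks. Its antisense neighbour Airn, a noncoding RNA made from the paternal copy that silences Igf2r there, starts inside the Igf2r gene body at position 12741311 of chromosome 17. Peaks just past the Airn start were listed at chr17:12741373-12741572 in knockout replicate 1, chr17:12741420-12741619 in knockout replicate 2 and chr17:12741367-12741575 in GFP replicate 2, with fold enrichments over local background, as the authors give them, of 4.29, 4.38 and 4.01. They began 56 to 109 bases after the start. A pair of peaks 44.1 to 45.1 kb into the gene from the Igf2r start was listed in knockout replicate 2, GFP replicate 1 and GFP replicate 2, with fold enrichments between 4.04 and 5.57. GFP replicate 1 alone had a peak 18.3 to 18.6 kb into the gene (5.05). No Igf2r peak was present in both libraries of one group and absent from both of the other. The Igf2r start itself had no peak. Airn RNA had 21, 34 and 34 counts in strain replicates 1 to 3, against 56, 38 and 34 counts in control replicates 1 to 3, in CPM below control in all 3 strain libraries, but its log2 fold change of -0.65 (SE 0.36) was not called.

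**Figure D5:**
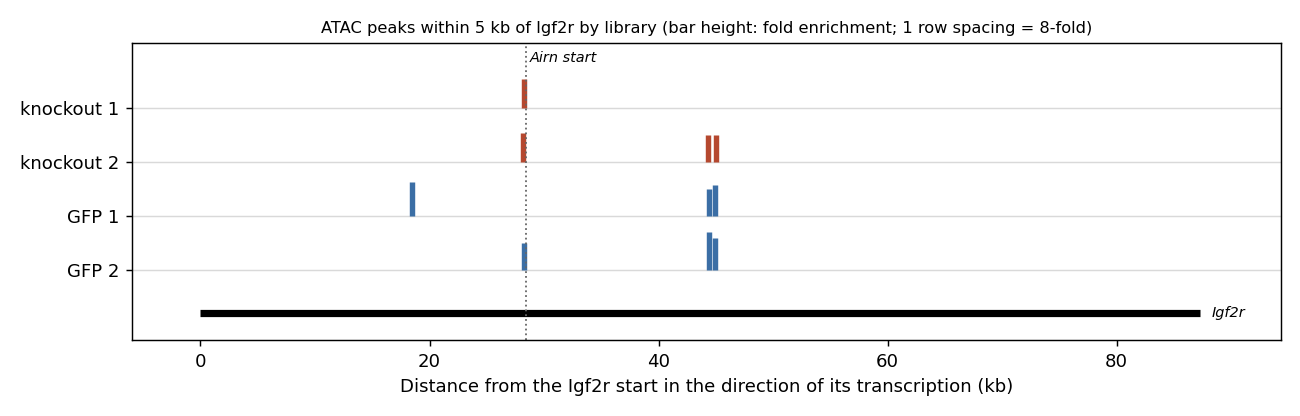
ATAC peaks within 5 kb of Igf2r in the 4 libraries, by distance in kb from the Igf2r start in the direction of transcription; bar height is the authors' fold enrichment and the dotted line marks the Airn start. Peaks stand beside the Airn start in knockout replicates 1 and 2 and GFP replicate 2, and 44.1 to 45.1 kb in from the Igf2r start in knockout replicate 2 and both GFP replicates.

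Plagl1 had 1 peak, at chr10:13090827-13091026 over its start, in GFP replicate 2 alone, with a fold enrichment of 4.49. It covers the last bases of the Plagl1 sequence shown above. GFP replicate 2 had the longest peak list of the 4 libraries, and the part of list length in this peak was not tested. Of the 8 genes with a start region among those used here, Plagl1 was the 1 with a peak there, against 66.3% of tested genes with such a region.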

How the data were processed

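The authors deposited a table of raw counts, 1 row per gene symbol, covering 6 RNA-seq libraries made from amplified full-length cDNA without molecular identifiers, so intervals cover counting error only. The submitters' processing notes name mm10 and, for RNA, STAR, HTSeq, DESeq2 and Trim Galore 0.6.5. Annotation and strand setting: not given in the sources used here. For ATAC-seq the notes name Trim Galore 0.6.5, Bowtie2 2.4.2 and MACS2. The deposited peak lists, 1 per library, give a score, a fold enrichment (a ratio to local background) and −log10 p and q values.

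Strain and control were compared over all genes with edgeR 4.0.16 (quasi-likelihood test, two-sided, TMM, filterByExpr, Benjamini-Hochberg adjustment) in R 4.3.3. A gene was called at an adjusted p under 0.05. SEs were obtained as |log2 fold change| over the root of the F statistic. Data were simulated with changes only in genes above a minimum mean count, and with the spread that the trend over genes gave. On these simulated data, the fit called 19.4% of true log2 changes of 0.5, 88.1% of those of 1 and 100% of those of 2. Of its calls there, 2.82% were false. A gene not called may therefore still differ by a small amount, and for sparser genes the rates say nothing. A peak counted for a gene when it overlapped the RefSeq gene body (GRCm38.p6) extended by 5 kb by at least 1 bp. Alternatives were DESeq2 1.42.0, limma-voom (limma 3.58.1), library size scaling, no filter, a replicate block, leaving out each library, and other peak windows and thresholds.

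The 10 genes and the gene lists were chosen with earlier results of these data known. Of each list, the called genes with the largest change were named, up to 4 in each direction; as most alike, the 2 genes with the highest Pearson correlation of log2 CPM (prior count 2) among genes of average log2 CPM of at least 2. For Plagl1, 1 of the 2 is not reported here. Copg2, Peg3os, Airn, Meg3, Rian, Mirg, Igf1r, Igf2bp1, Igf2bp2, Zfp57, Dppa3 and the CDK inhibitor genes fall outside this rule and were named after their values were seen. Gene lengths in exons were not used here, so levels are compared within a gene only.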

Additional observations from a re-analysis of the deposited data

How the results depend on the processing

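The edgeR fit called 911 genes higher and 1134 lower under strain. DESeq2 called 1320 higher and 1540 lower, library size scaling 1169 and 935, limma-voom 934 and 1147, and no filter 1428 and 1574. Leaving out 1 library gave 369 (without control replicate 1) to 1085 higher and 577 (without strain replicate 3) to 1244 lower. Of the growth-control genes, 5 were lower, 6 by DESeq2 (Ndn added), 6 with no filter (Dlk1 added), and 2 to 6 with 1 library left out, the 6 without control replicate 2 (Dlk1 added). With 1 library left out, Plagl1 ranged from -0.29 to 0.08 and Grb10 from -0.05 to 0.16 (log2). Paternally expressed genes then gave 1 to 3 higher and 1 to 2 lower, IGF2 partners 0 to 2 higher, imprint maintenance genes 0 to 3 higher and 1 to 2 lower, and maternally expressed genes 0 to 1 lower. DESeq2 and no filter each gave 2 IGF2 partners higher and 1 maternally expressed gene lower. The cause of these shifts was not tested, though fewer libraries entered each fit with 1 left out. Of 254 alternative values for 24 named genes, 230 kept their direction and their side of the threshold, 20 lost the call, 2 gained it (Ndn, by DESeq2 and with the block) and 2 reversed (Plagl1 and Grb10). At −log10 q of at least 5, 1 gene of the 10 had a peak, with 10 peaks. A window of 20 kb gave 3 genes and 13 peaks. Leaving out 1 ATAC library gave 1 to 2 genes and 7 (without GFP replicate 2) to 10 peaks.

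Strain and control libraries share replicate numbers, and deviations of same-numbered libraries correlated by 0.0278, 0.208 and 0.0943. Strain replicates 2 and 3 each correlated best with the control of their own number, and strain replicate 1 with control replicate 3 (0.0905). These values do not settle whether the libraries were paired, so a replicate block was kept as an alternative. With a replicate block, 1557 genes were higher and 1619 lower, 6 of the growth-control genes were lower (Ndn added), 3 IGF2 partners were higher and 1 maternally expressed gene was lower. For the peak counts, no paired analysis was possible because they come from no test.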
